A study of Mus musculus with 2 samples.

Results

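Iron and heme handling was followed through 8 genes: Slc40a1, Hmox1, Cd163, Fth1, Ftl1, Slc11a1, Tfrc and Blvrb. They were found by symbol among the 31253 genes of both deposited matrices, and each symbol matched 1 gene. Their unique molecular identifiers (UMIs, the tags that mark single captured transcripts) were counted in macrophages, monocytes, neutrophils, dendritic cells and lymphocytes, and compared between WT and Vsig4 knockout (KO) mice. A further 69 genes of iron and heme metabolism, in 7 lists, give the pathway around them.

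Liver macrophages recycle iron from aged red blood cells and from hemoglobin released into plasma. CD163 takes up hemoglobin bound to haptoglobin, and heme oxygenase 1 (Hmox1) opens the heme ring and frees its iron. Biliverdin reductase B (Blvrb) is an enzyme that can reduce bile pigments. NRAMP1 (Slc11a1) moves divalent metal out of the phagosome, ferritin heavy and light chains (Fth1, Ftl1) form the shell that stores iron, and ferroportin (Slc40a1) is the only known iron exporter of mammalian cells. The transferrin receptor (Tfrc) brings in transferrin-bound iron and is prominent on dividing cells.

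Slc40a1, Fth1, Ftl1 and Tfrc are also controlled after transcription. Iron regulatory proteins bind a short hairpin, the iron-responsive element, in their messenger RNAs; at the 5′ end it limits translation and at the 3′ end it protects the message from decay. The UMI levels given here do not measure that translational step, which is why the elements are shown. Annotated UTRs were searched on the transcript strand for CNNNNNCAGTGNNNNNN, where the last base of the loop is not G and the 5 bases on either side of the loop pair (G with T allowed). This found 1 site in the 5′ UTR of each of Slc40a1, Fth1 and Ftl1 and 4 sites in the 3′ UTR of Tfrc. They are printed 5′ to 3′ with the 6-base loop in capitals and with T for U, from mm10 positions chr1:45925464-45925493 (minus strand, Slc40a1), chr19:9982732-9982761 (plus, Fth1), chr7:45459778-45459807 (minus, Ftl1), and chr16:32631219-32631248, chr16:32631598-32631627, chr16:32631663-32631692 and chr16:32631710-32631739 (plus, Tfrc).
Slc40a1: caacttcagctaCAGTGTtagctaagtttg
Fth1: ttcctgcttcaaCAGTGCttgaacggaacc
Ftl1: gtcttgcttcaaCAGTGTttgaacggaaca
Tfrc site A: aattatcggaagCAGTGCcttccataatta
Tfrc site B: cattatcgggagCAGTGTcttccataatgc
Tfrc site C: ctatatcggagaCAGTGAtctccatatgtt
Tfrc site D: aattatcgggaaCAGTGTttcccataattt
The same letters were present in the 5′ UTR of 23 of 20916 genes with one (0.110%) and in the 3′ UTR of 100 of 21045 genes (0.475%). No such site was found in the UTRs of Hmox1, Cd163, Slc11a1 or Blvrb, which says only that these letters are not there. In mm10 the genes lie on chromosome 1 (Slc40a1, ENSMUSG00000025993, 45908068 to 45926523; Slc11a1, ENSMUSG00000026177, 74375195 to 74386062), chromosome 8 (Hmox1, ENSMUSG00000005413, 75093621 to 75100589), chromosome 6 (Cd163, ENSMUSG00000008845, 124304656 to 124330527), chromosome 19 (Fth1, ENSMUSG00000024661, 9980598 to 9985098), chromosome 7 (Ftl1, ENSMUSG00000050708, 45457944 to 45459884; Blvrb, ENSMUSG00000040466, 27447978 to 27466144) and chromosome 16 (Tfrc, ENSMUSG00000022797, 32608920 to 32632794).

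Live CD45+ single cells had been sorted after collagenase digestion of livers with metastases of the mouse melanoma line B16F10, and were sequenced from the 5′ end. The WT genotype and the Vsig4-/- genotype, which lacks an immune receptor of tissue-resident macrophages, have 1 library each; how many animals entered each library is not given in the sources used here. With 1 library per genotype there is no replicate check and no test: a KO to WT ratio compares these libraries, and genotype, animal and library cannot be told apart. Levels are UMIs of the gene per 1000000 UMIs (CPM), summed over the cells of a class, and all intervals are exact 95% intervals that cover counting error only.

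After filtering, the WT library gave 6491 cells with 26212434 UMIs and the KO library 5479 cells with 23370920 UMIs; 47 cell barcodes occurred among the kept cells of both. Vsig4 itself was at 23 UMIs in 11 of 17 WT macrophages with a Kupffer cell marker panel and at 0 UMIs in the 8 KO cells of that kind. The whole libraries held 43 WT and 3 KO Vsig4 UMIs, 2 of the KO ones in macrophages with neither that nor the tumour-associated panel. Cells were put in a class when they held at least 3 UMIs over at least 2 genes of a marker panel. This gave 262 WT and 165 KO macrophages (C1qa, C1qb, C1qc), 395 and 156 classical monocytes, 54 and 38 neutrophils, 54 and 29 type 1 conventional dendritic cells (cDC1), 230 and 109 type 2 (cDC2), 61 and 62 mature dendritic cells, 233 and 157 plasmacytoid dendritic cells (pDC), 1846 and 1983 B cells, 1422 and 1520 T cells, and 454 and 376 NK cells or ILC1. A further 50 WT and 26 KO cells passed both the macrophage and the classical monocyte panel and were kept as a class of their own. Non-classical monocytes (75 and 17 cells) had too few KO cells for a ratio. Genes outside the panels checked the classes: the macrophage gene Ms4a7 was at 349 CPM in WT and 407 CPM in KO macrophages against 18.5 and 19.6 CPM in classical monocytes, and the neutrophil gene S100a8 was at 39141 and 42840 CPM in neutrophils.

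The plot of levels by class shows that the 8 genes fell into different cells. Among the named classes Slc40a1 was found in neutrophils, macrophages and cells with both panels apart from 3 single UMIs in lymphocytes and 1 in KO basophils and mast cells, Hmox1 and Slc11a1 were myeloid genes with monocytes included, Cd163 was rare and its largest share was dendritic, Tfrc was highest in pDC, and Fth1, Ftl1 and Blvrb were found in every class. Levels are compared between classes for 1 gene at a time, since capture differs between genes.

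**Figure D1:**
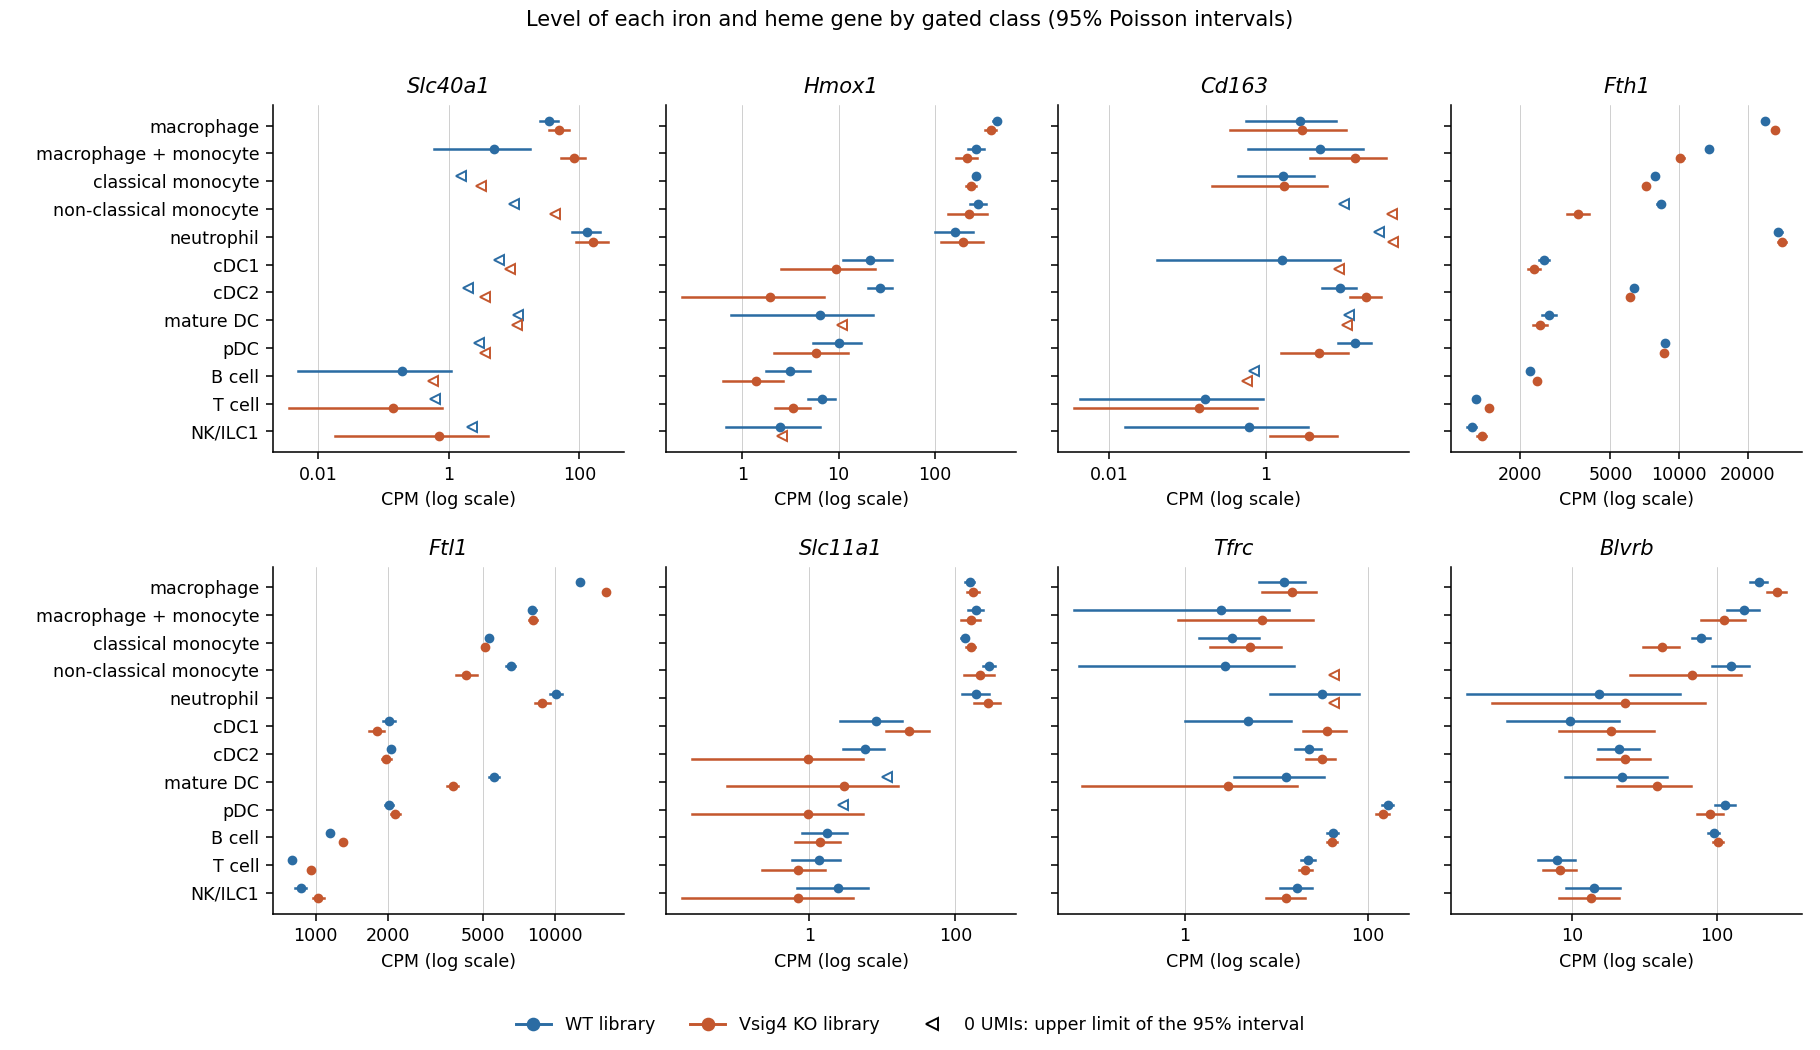
Level of each of the 8 genes (CPM, log axis) in each cell class, WT and KO, with exact 95% counting intervals; open triangles mark the upper limit where a class held 0 UMIs. Slc40a1 is at 131 and 162 CPM in neutrophils, 34.8 and 49.6 CPM in macrophages and at 0 in classical monocytes and all 4 dendritic cell classes.

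Which cells held the UMIs differed by gene more than the cell numbers did. The macrophage and monocyte classes together made up 12.0% of WT and 6.64% of KO cells and 16.4% and 9.58% of all UMIs. They held 64.6% of the Hmox1 UMIs in WT and 71.0% in KO, 60.8% and 62.9% of Slc11a1, 53.3% and 61.1% of Slc40a1, 43.0% and 36.1% of Ftl1 and 39.1% and 31.6% of Fth1. For Cd163 their share was only 15.3% and 14.8%, while the dendritic classes held 61.0% and 46.3% of it. Lymphocytes were 57.3% of WT and 70.8% of KO cells and held 48.57% and 64.15% of all UMIs. Their part of the Tfrc UMIs was 48.6% and 59.4%, near that share in WT and below it in KO. Of the Blvrb UMIs they held 36.0% and 57.4%, below that share in both libraries. Their parts of Hmox1 (2.89% and 3.75%) and Slc40a1 (1.33% and 2.11%) were far below it. Neutrophils were 0.832% of WT and 0.694% of KO cells and held 22.7% and 14.7% of the Slc40a1 UMIs.

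**Figure D2:**
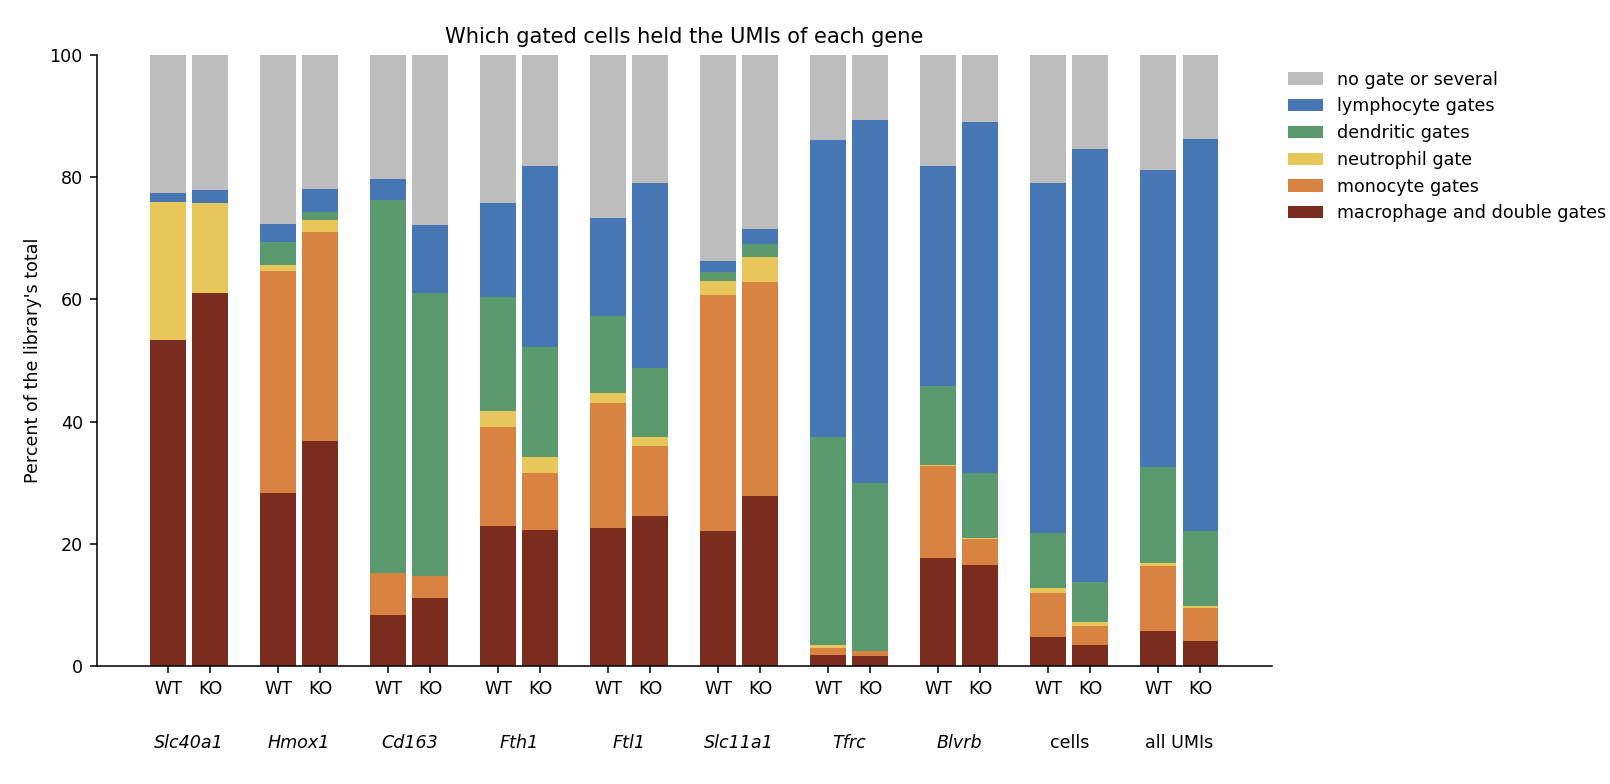
Percent of each library's UMIs of a gene held by each group of classes (stacked bars, WT and KO), beside the percent of cells and of all UMIs. The bars of Hmox1, Slc11a1 and Slc40a1 are mostly macrophage and monocyte, and the largest part of those of Cd163 is dendritic (61.0% and 46.3%). The lymphocyte parts of Tfrc and Blvrb are 48.6% and 36.0% in WT, where lymphocytes held 48.57% of all UMIs.

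The UMIs were also spread unevenly over cells. Of the 75 WT and 95 KO Slc40a1 UMIs, 50% lay in 14 WT and 5 KO cells, and for Cd163 (59 and 54 UMIs) in 26 and 9 cells. For Hmox1 (2076 and 879 UMIs) it took 71 and 34 cells, and for Fth1 (136828 and 93848 UMIs) 375 and 343. Ratios for Slc40a1 and Cd163 therefore rest on few cells.

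Over whole libraries, 5 genes were lower in KO with intervals below 1. Hmox1 was at 79.2 CPM in WT and 37.6 CPM in KO (ratio 0.475, interval 0.438 to 0.514), Slc11a1 at 42.9 and 25.6 CPM (0.596, 0.539 to 0.659), Fth1 at 5220.0 and 4016 CPM (0.769) and Ftl1 at 2873 and 2357 CPM (0.820). Blvrb was nearer 1, at 59.7 and 55.0 CPM (0.922, 0.855 to 0.993). Slc40a1 was higher, at 2.86 and 4.07 CPM (1.42, 1.04 to 1.95). Cd163 was at 1.03 and Tfrc at 1.05. The make-up of the libraries differed as well: giving every class its WT level and only the KO share of UMIs yielded ratios of 0.660 for Hmox1, 0.655 for Slc11a1, 0.794 for Fth1, 0.791 for Ftl1 and 0.732 for Slc40a1. What was left within classes was 0.719 for Hmox1, 0.911 for Slc11a1, 0.969 for Fth1, 1.04 for Ftl1 and 1.94 for Slc40a1. Part of what was left for Hmox1 was in cells that passed no panel, which held 311 WT UMIs (123 CPM) and 30 KO UMIs (22.9 CPM) of it.

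Within classes, ratios were taken for macrophages, monocytes, neutrophils, dendritic cells and lymphocytes where a gene had at least 20 UMIs over both libraries and each library at least 20 cells of the class. This gave 53 pairs of gene and class over 11 classes, and 8 of the 53, from 4 of the genes, passed 1.5-fold in either direction; over all genes with the same minimum 17.6% of the pairs did. The interval lay above 1 in 12 pairs, below 1 in 12 and included 1 in 29. With the 50-UMI minimum used for all genes, 0 of 6 members passed in macrophages, where 17.0% of all genes did, and 0 of 5 in cells with both panels (18.4% of all genes). It was 1 of 5 in classical monocytes (10.6%), 0 of 2 in neutrophils (36.0%), 0 of 2 in cDC1 (16.7%), 1 of 5 in cDC2 (9.56%), 0 of 2 in mature dendritic cells (15.2%), 0 of 4 in pDC (9.54%), 0 of 4 in B cells (6.52%), 1 of 5 in T cells (5.59%) and 0 of 2 in NK cells (8.30%). The 3 were Blvrb in classical monocytes and Hmox1 in cDC2 and T cells, all lower in KO. Median log2 ratios used the 20-UMI minimum for members and the 50-UMI minimum for all genes, so the gene sets differ in depth. The median was 0.17 for members and -0.06 for all genes in macrophages, and -0.12 and 0.00 in classical monocytes. Over the 11 classes the member median was highest in neutrophils (0.26, all genes -0.01) and lowest in cells with both panels (-0.26, all genes 0.06).

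**Figure D3:**
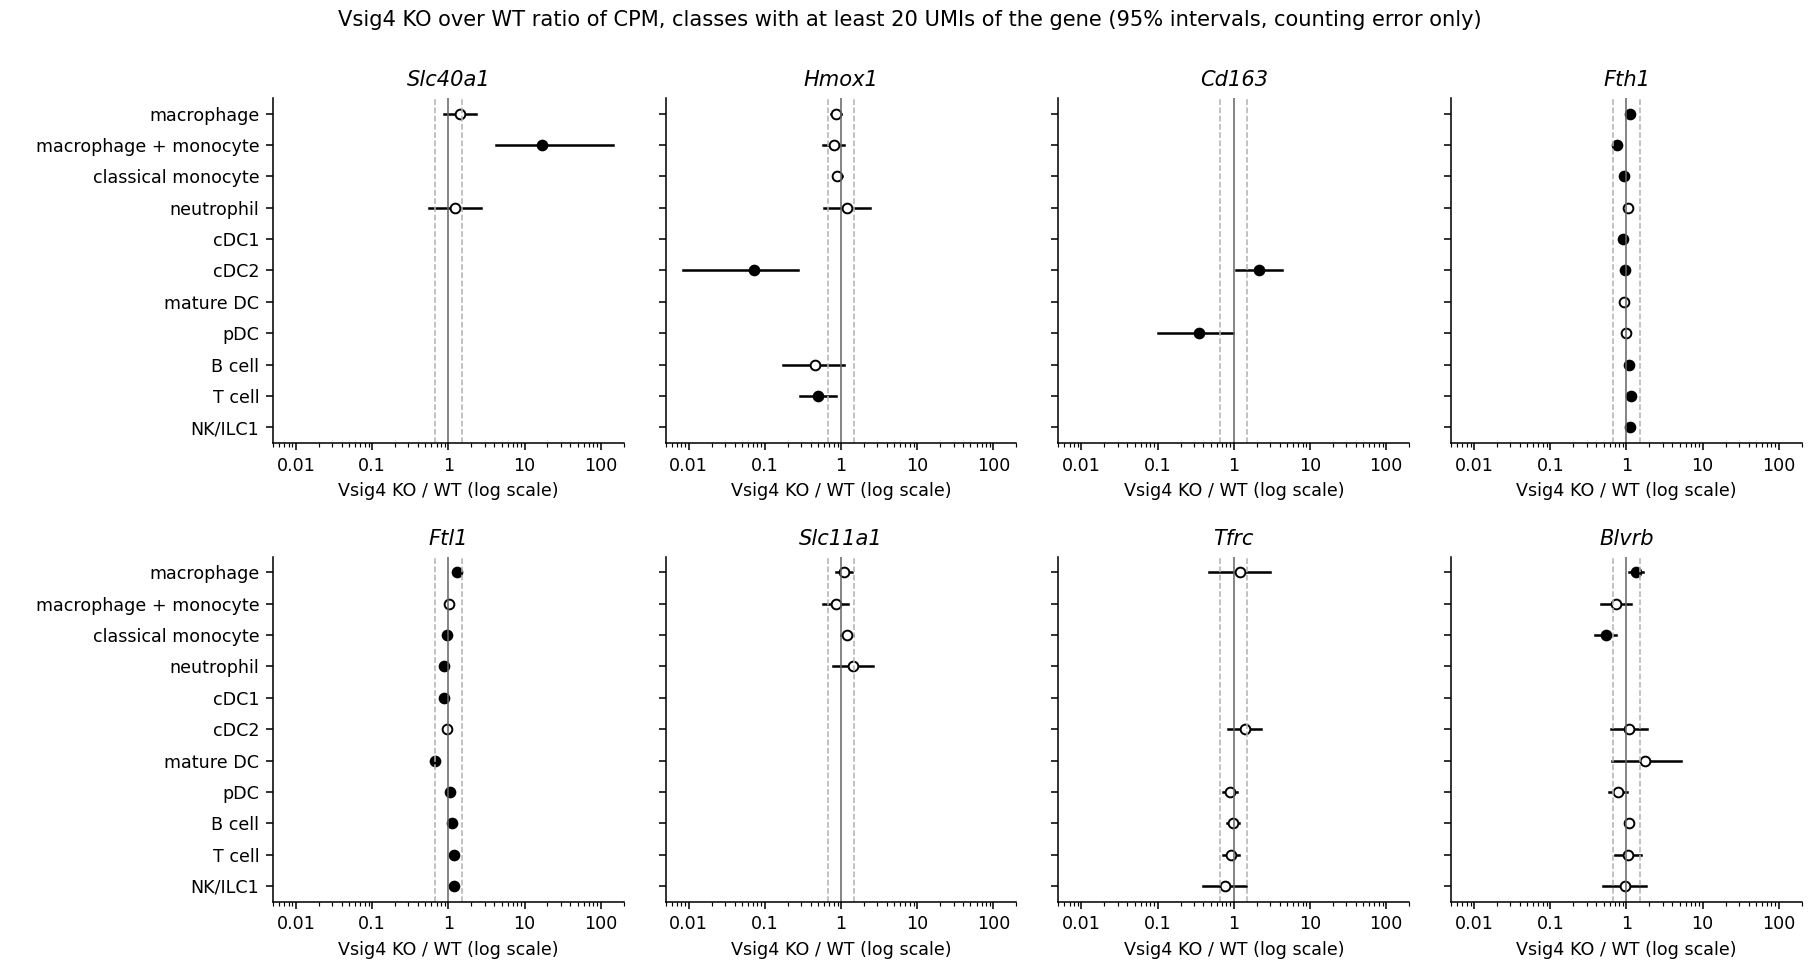
KO to WT ratio of each gene in each class with at least 20 UMIs (log axis), with exact 95% counting intervals; filled points have an interval that does not include 1 and dashed lines mark 1.5-fold either way. Fth1 and Ftl1 have narrow intervals near 1, and the points farthest from 1 are Slc40a1 in cells with both panels (16.8) and Hmox1 in cDC2 (0.0715).

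Uptake of hemoglobin was represented by Cd163, which was nearly absent from macrophages. It gave 3 UMIs in WT and 2 UMIs in KO macrophages, 4 and 2 UMIs in classical monocytes and 2 and 4 UMIs in cells with both panels. It was not detected in neutrophils, mature dendritic cells or B cells; in B cells 0 of 1846 and 0 of 1983 cells held a UMI. Among macrophages and cells with both panels, the Kupffer panel cells held 4 UMIs in 17 WT cells (105 CPM, 28.6 to 268). The 8 KO cells of this kind held 1 UMI (38.2 CPM, 0.967 to 213). Those with neither this nor the tumour-associated panel held 1 UMI in each library. The Kupffer panel cells were at 91.2-fold (9.02 to 4490) their level in WT and 22.3-fold (0.284 to 1752) in KO. More UMIs, though at lower CPM than in the Kupffer panel cells, were found in cDC2 and pDC. The cDC2 held 17 UMIs in 17 WT cells and 20 UMIs in 13 KO cells. In pDC there were 18 UMIs in 15 WT cells and 5 UMIs in 5 KO cells. Cells that passed several panels held 9 WT and 15 KO UMIs, and NK cells 1 and 5 UMIs. Of the 15 KO UMIs, 11 lay in 1 cell that also passed the Kupffer panel. The share of cells with a UMI was 7.39% in WT and 11.9% in KO cDC2 (median depths 7864 and 9685 UMIs per cell) against 0% in B cells (2407 and 2790 UMIs). With every cell thinned to 1000 UMIs it was 0.437% and 0.917%, near the level of 1 UMI, so no order is read from it. Both levels were low, 9.02 and 19.3 CPM in cDC2 and 14.0 and 4.84 CPM in pDC, and WT and KO lay in opposite order in the 2 classes. The ratio was 2.15 (1.07 to 4.36) in cDC2 and 0.346 (0.101 to 0.967) in pDC. In cDC2, 6 of the KO UMIs came from 1 cell, and without the top cell of each library the ratio was 1.61 (0.730 to 3.53).

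Heme breakdown by Hmox1 was a shared trait of macrophages and monocytes. Macrophages held 479 WT UMIs in 119 cells and 261 KO UMIs in 76 cells, or 439 and 380 CPM. Classical monocytes were at 267 and 239 CPM, non-classical monocytes at 283 and 227 CPM, cells with both panels at 269 and 216 CPM and neutrophils at 162 and 197 CPM. Among the 11 classes with enough cells in both libraries, macrophages stood above the next class in WT and in KO. The intervals of classical monocytes, cells with both panels and neutrophils overlapped in both libraries. Outside the 11, the interval of the 17 KO non-classical monocytes (138.5 to 350.1 CPM) overlapped that of KO macrophages (335.7 to 429.5 CPM). Lymphocytes were far lower, at 6.72 and 3.37 CPM in T cells and 3.10 and 1.39 CPM in B cells. In macrophages 45.4% of WT and 46.1% of KO cells held a Hmox1 UMI (median depths 2644 and 2909 UMIs), and 23.4% and 20.7% after thinning to 1000 UMIs; B cells were at 0.650% and 0.454%, and 0.332% and 0.0516% after thinning.

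KO to WT ratios of Hmox1 in the main myeloid classes were below 1 with intervals that included it: 0.867 (0.742 to 1.01) in macrophages, 0.896 (0.776 to 1.03) in classical monocytes and 0.801 (0.578 to 1.10) in cells with both panels. Neutrophils gave 1.21 (0.601 to 2.42), from 21 WT and 17 KO UMIs, of which 10 and 9 lay in 1 cell each. The 9 WT neutrophils with Hmox1 carried more of the tumour-associated panel (6410.0 against 515 CPM in the other neutrophils) and of Lyz2 (6201 against 2148 CPM) and less S100a8 and S100a9 (31291 against 107506 CPM). The 9 KO ones were at 14289 CPM of the dendritic genes H2-Ab1 and Cd74 against 296 CPM. The part of these markers in the neutrophil value was not tested. The largest distance from 1 was in cDC2, which held 51 UMIs in 19 of 230 WT cells and 2 UMIs in 2 of 109 KO cells, or 27.1 and 1.93 CPM. Its ratio was 0.0715 (0.00843 to 0.272), and 0.0614 (0.00150 to 0.369) without the top cell of each library; the WT top cell held 21 UMIs. The 19 WT cells were at 1527 CPM of the myeloid gene Lyz2 against 634 CPM in the other WT cDC2; its part in the ratio was not tested. They held 0 C1q UMIs, which the panels largely fix, since cells that pass the macrophage panel too are not in this class. The T cell ratio of 0.502 (0.289 to 0.853) turned on 1 WT cell with 18 UMIs, without which it was 0.874 (0.465 to 1.64). In B cells it was 0.449 (0.175 to 1.08), from 16 and 9 UMIs.

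Hmox1 also differed between macrophage and monocyte subsets. Subsets were taken from the macrophages and the cells with both panels, 312 in WT and 191 in KO. Cells with a tumour-associated panel (Spp1, Arg1, Gpnmb, Trem2; 81 WT and 54 KO cells) were at 652 and 530 CPM, and macrophages with neither this nor the Kupffer panel (214 and 129 cells) at 221 and 185 CPM. That is 2.96-fold (2.48 to 3.53) in WT and 2.87-fold (2.26 to 3.66) in KO, while the KO to WT ratio was 0.813 (0.681 to 0.968) and 0.837 (0.655 to 1.07) within these subsets. Classical monocytes with the tumour-associated panel (36 and 9 cells) were at 641 and 1104 CPM against 223 and 185 CPM in the others. The KO cells of this subset stood higher, with a KO to WT ratio of 1.72 (1.29 to 2.28), but there were 9 of them, and 1 of them held 38 of the 76 UMIs. Kupffer panel macrophages gave 11 UMIs in WT and 21 UMIs in KO (288 and 802 CPM; 2.78, 1.28 to 6.39). The KO UMIs lay in 5 of 8 cells, 9 of them in 1 cell, and 1 cell of this subset also held 40 hemoglobin UMIs, whose part was not tested.

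**Figure D4:**
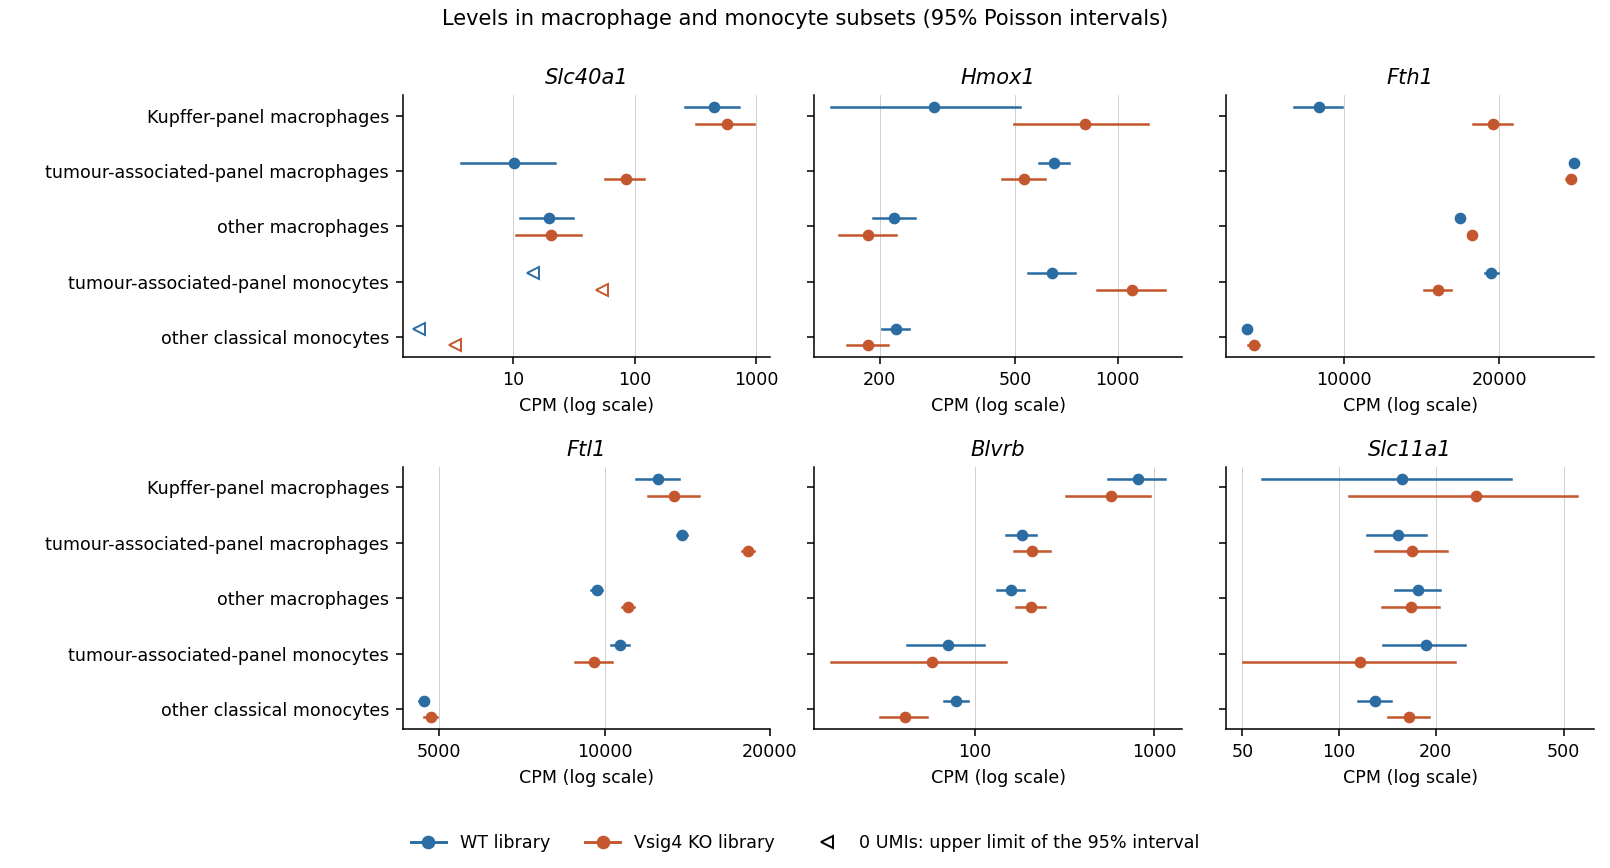
Levels (CPM, log axis) of 6 of the genes in macrophages with the Kupffer panel, the tumour-associated panel or neither, and in classical monocytes with or without the tumour-associated panel, WT and KO, with exact 95% counting intervals. Slc40a1 is highest in Kupffer panel cells (445 and 573 CPM) and Hmox1 is higher in tumour-associated-panel than in other cells of either kind.

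Blvrb was found in lymphoid as well as myeloid cells. Macrophages were highest of the classes compared, with 214 UMIs in WT and 179 UMIs in KO (196 and 261 CPM). Cells with both panels (154 and 113 CPM), pDC (115 and 90.1 CPM) and B cells (95.5 and 102.0 CPM, from 493 and 659 UMIs) followed, in this order in WT. In KO, B cells stood above pDC, with intervals that overlapped. T cells were at 7.89 and 8.29 CPM and NK cells at 14.2 and 13.5 CPM, so B cells stood apart among lymphocytes. In B cells 21.7% of WT and 25.6% of KO cells held a UMI against 2.67% and 3.68% of T cells, which were deeper (3568 and 4053 against 2407 and 2790 UMIs per cell). The KO to WT ratio was 1.07 (0.949 to 1.20) in B cells and 0.783 (0.598 to 1.02) in pDC.

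Blvrb differed in opposite directions in the 2 main myeloid classes. In macrophages it was 1.33 (1.09 to 1.63), under the 1.5-fold line, and the mean of each cell's CPM gave 1.03. In classical monocytes it was 77.9 CPM in WT (190 UMIs in 137 cells) and 41.8 CPM in KO (49 UMIs in 41 cells), a ratio of 0.536 (0.383 to 0.737). Without the top cell of each library it was 0.522, and over the other settings it lay between 0.493 and 0.604. Monocytes outside the tumour-associated panel gave 0.518. The share of monocytes with a UMI was 34.7% in WT and 26.3% in KO (median depths 6089 and 7219 UMIs), but 6.75% and 5.81% after thinning to 1000 UMIs. Kupffer panel macrophages held 31 WT and 15 KO Blvrb UMIs, or 812 and 573 CPM, which was 5.12-fold (3.35 to 7.60) and 2.79-fold (1.52 to 4.79) the level in macrophages with neither panel.

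Iron export by Slc40a1 was found in few cells. Neutrophils were the highest class, with 17 WT UMIs in 11 cells and 14 KO UMIs in 10 cells (131 CPM, 76.5 to 210, and 162 CPM, 88.6 to 272). Macrophages held 38 WT UMIs in 23 cells and 34 KO UMIs in 20 cells (34.8 CPM, 24.7 to 47.8, and 49.6 CPM, 34.3 to 69.3). The neutrophil and macrophage intervals did not overlap in either library. Classical monocytes had 0 UMIs in both libraries, with upper limits of 1.51 and 3.14 CPM, and so had all 4 dendritic classes and the non-classical monocytes. B cells gave 1 WT UMI, T cells 1 KO UMI and NK cells 1 KO UMI.

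Cells that passed the macrophage panel too had been left out of the neutrophils, so few C1q UMIs could be found there; those with Slc40a1 held 0 of C1q and 0 of the Kupffer panel. S100a8 and S100a9 together were at 110530.0 CPM in WT and 140760.0 CPM in KO against 79403 and 86940.0 CPM in the other neutrophils. The share of neutrophils with a Slc40a1 UMI was 20.4% in WT (10.6% to 33.5%) and 26.3% in KO (13.4% to 43.1%), at median depths of 1908 and 2260 UMIs. In macrophages it was 8.78% (5.65% to 12.9%) and 12.1% (7.56% to 18.1%), at 2644 and 2909 UMIs. The neutrophil and macrophage intervals of this share overlapped in both libraries. In B cells it was 0.0542% and 0%. After thinning to 1000 UMIs the shares were 6.52% and 15.2% in neutrophils, 3.83% and 7.33% in macrophages and 0% in B cells of both libraries. Thinning left out 8 WT and 5 KO neutrophils, 27 and 15 macrophages and 37 and 44 B cells as too shallow. The neutrophil and macrophage intervals overlapped after thinning too. The thinned WT neutrophil share equals that of 3 cells (6.522%), so no order of neutrophils and macrophages is read from the shares.

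Within macrophages, Slc40a1 was concentrated in the Kupffer panel cells. The 17 WT cells of that kind held 17 UMIs in 8 cells (445 CPM, 260 to 713) and the 8 KO cells 15 UMIs in 6 cells (573 CPM, 321 to 945). Macrophages with neither panel held 17 and 12 UMIs (19.5 and 20.5 CPM), so the Kupffer panel cells were 22.8-fold (10.9 to 47.5) and 27.9-fold (12.2 to 65.3) higher. Tumour-associated-panel macrophages were at 10.1 CPM in WT and 84.3 CPM in KO, but 24 of the 31 KO UMIs came from 1 cell with 28509 UMIs in all. Without the top cell of each library they were at 6.85 (1.87 to 17.5) and 20.6 CPM (8.30 to 42.5), intervals that overlap. That cell is also the whole of the difference in cells with both panels, 2 against 24 UMIs in 1 cell each. Among all macrophages with Slc40a1, 18 of 24 WT cells and 10 of 21 KO cells also held Hmox1 (75.0% and 47.6%), against 43.8% and 46.5% of the macrophages without it.

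The KO to WT ratio of Slc40a1 was 1.42 (0.869 to 2.32) in macrophages, 1.24 (0.564 to 2.66) in neutrophils and 1.29 (0.598 to 2.74) in Kupffer panel cells, each with an interval that included 1. The mean of each cell's CPM turned the direction in both classes, to 0.921 in macrophages and 0.806 in neutrophils. The macrophage ratio was 2.22 when cells with both panels were joined to it, and the neutrophil ratio was 1.90 with a panel threshold of 5 UMIs. The library total without a difference in class make-up, 1.94, likewise rests on few cells: of the 95 KO UMIs, 24 lay in that cell and 12 in 1 KO cell of several panels, which also held 11 Cd163 UMIs.

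Ferritin, the iron store, was one of the largest parts of the myeloid RNA. Fth1 ranked first among all genes in macrophages of both libraries, with 25906 WT and 17993 KO UMIs, and Ftl1 had rank 4 in WT and rank 3 in KO. Together they made up 3.64% of WT and 4.25% of KO macrophage UMIs, 3.73% and 3.70% of neutrophil UMIs, 1.31% and 1.23% of classical monocyte UMIs and 1.07% in pDC of both libraries. B cells were at 0.337% and 0.367%, T cells at 0.209% and 0.242% and NK cells at 0.210% and 0.239%. Macrophages and neutrophils were thus the 2 highest classes in both libraries. Basophils and mast cells (36 and 23 cells) were at 4943 and 7439 CPM of Ftl1.

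The balance of the 2 chains differed between classes and within them. Read only between groups of cells, Fth1 per Ftl1 UMI was highest in pDC (4.27 in WT and 3.98 in KO). It was 3.08 in cDC2 of both libraries and 2.70 and 3.19 in neutrophils, which stood below cDC2 in WT and above them in KO, then 1.88 and 1.61 in macrophages and 1.47 and 1.41 in classical monocytes. It was below 1 only in mature dendritic cells (0.484 and 0.661), in basophils and mast cells (0.335 and 0.210) and in the 17 KO non-classical monocytes (0.848, against 1.27 in WT) among the classes measured. Within macrophages it was 0.713 and 1.45 in Kupffer panel cells and 2.01 and 1.51 in tumour-associated-panel cells. Mature dendritic cells were at 2685 and 2463 CPM of Fth1, near cDC1 (2567 and 2315 CPM), but at 5545 and 3726 CPM of Ftl1 against 2019 and 1796 CPM. A near-identical copy, Ftl1-ps1 on chromosome 13, took 239 WT and 133 KO UMIs, 0.316% and 0.241% of the UMIs of both. Transcripts that match both genes were not examined, so these shares set no limit on the error of Ftl1 or of Fth1 per Ftl1.

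**Figure D5:**
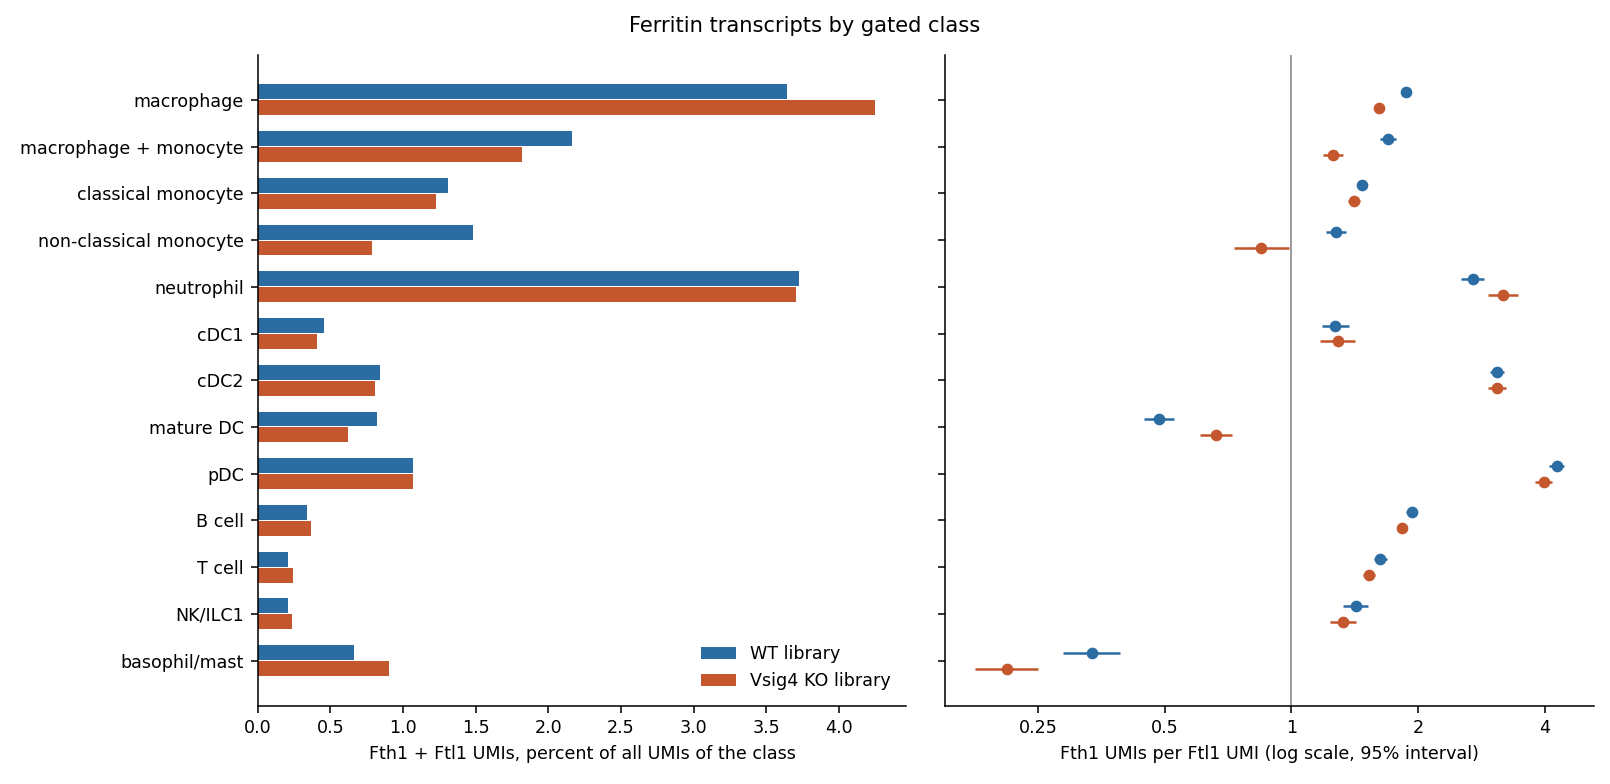
Left, percent of a class's UMIs from Fth1 and Ftl1 together; right, Fth1 UMIs per Ftl1 UMI (log axis), WT and KO. Macrophages and neutrophils have the largest ferritin shares (3.64% and 3.73% in WT), and the quotient runs from 4.27 in WT pDC to below 1 in mature dendritic cells.

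Large UMI numbers make counting intervals narrow for ferritin, so that ratios close to 1 exclude it; the spread between animals is not in them. Fth1 was at 23745 and 26226 CPM in macrophages (1.11, 1.08 to 1.13), 27170.0 and 28201 CPM in neutrophils (1.04, 0.985 to 1.09), 7812 and 7186 CPM in classical monocytes (0.920, 0.896 to 0.944) and 13575 and 10112 CPM in cells with both panels (0.745, 0.712 to 0.779). In lymphocytes it was 2218 and 2376 CPM in B cells (1.07), 1293 and 1463 CPM in T cells (1.13) and 1231 and 1362 CPM in NK cells (1.11). Ftl1 was at 12657 and 16264 CPM in macrophages (1.29, 1.25 to 1.32), 5304 and 5098 CPM in classical monocytes (0.961) and 10079 and 8837 CPM in neutrophils (0.877, 0.801 to 0.959). It was higher in KO in B cells (1.13), T cells (1.20) and NK cells (1.19) as well, and no ferritin ratio passed 1.5-fold in the 11 classes. In basophils and mast cells, outside these 11, Ftl1 was at 1.51 (1.35 to 1.67) and Fth1 at 0.944 (0.766 to 1.16). The mature dendritic ratio of Ftl1 was 0.672 (0.625 to 0.723); without the top cell of each library it was 0.808, and as a mean of each cell's CPM 0.892.

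Ferritin also differed between subsets. In tumour-associated-panel macrophages Fth1 was 1.66-fold in WT and 1.55-fold in KO the level of macrophages with neither panel, and Ftl1 1.43-fold and 1.65-fold. Tumour-associated-panel monocytes were 2.98-fold and 2.27-fold the other monocytes for Fth1. WT Kupffer panel macrophages were at 8935 CPM of Fth1, 0.531 of the level in macrophages with neither panel, while the KO cells were at 19406 CPM, 1.10 of it; Ftl1 was 12524 and 13370 CPM. The part of the hemoglobin-holding cell in the KO Fth1 value was not tested. CD4 T cells (310 and 391 cells) were higher in CPM of Fth1 than CD8 T cells (534 and 528 cells), 1.28-fold (1.21 to 1.36) in WT and 1.41-fold (1.34 to 1.48) in KO. In CPM of Ftl1 they were at 1.05-fold and 1.14-fold, with an interval that included 1 in WT (0.972 to 1.135). Cycling T cells were lower in CPM of both, at 0.731 and 0.819 of the level of non-cycling T cells for Fth1 and 0.720 and 0.772 for Ftl1. They were also deeper, with medians of 9980 and 11088 UMIs per cell against 3488 and 3994. These ratios therefore compare shares of the captured RNA and not amounts per cell.

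Slc11a1, the phagosomal metal exporter, was a myeloid gene like Hmox1. Non-classical monocytes were at 289 CPM in WT and 215 CPM in KO, and neutrophils at 193 and 278 CPM (25 and 24 UMIs). Non-classical monocytes had the highest value in WT and neutrophils in KO, with intervals of the 2 classes that overlapped in both libraries. Of the 25 WT neutrophil UMIs, 11 lay in 1 cell that also passed the tumour-associated panel. Macrophages were at 157 and 174 CPM (171 and 119 UMIs), cells with both panels at 191 and 164 CPM and classical monocytes at 135 and 162 CPM (330 and 190 UMIs). Lymphocytes and most dendritic cells were near 0, with 1.74 and 1.39 CPM in B cells and 0 WT UMIs and 1 KO UMI in pDC. In macrophages 34.0% of WT and 35.2% of KO cells held a UMI and 12.3% and 12.7% after thinning, against 0.325% and 0.454% of B cells before thinning. The KO to WT ratio was 1.11 (0.868 to 1.41) in macrophages, 1.20 (0.996 to 1.44) in classical monocytes and 1.44 (0.787 to 2.63) in neutrophils. The lower library total in KO was thus not seen within these classes. Slc11a1 was lower in KO in the non-classical monocytes and in cells with both panels (0.861, 0.588 to 1.25, an interval that included 1). It was also lower in cells outside the classes. Cells that passed several panels were at 99.2 CPM in WT and 68.16 CPM in KO, and cells that passed no panel at 59.99 and 35.79 CPM. Slc11a1 is absent from the 8 pairs past 1.5-fold.

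Uptake of transferrin-bound iron through Tfrc set the pDC apart. They were at 163 CPM in WT (142 to 187, 210 UMIs in 104 of 233 cells) and 144 CPM in KO (122 to 170, 149 UMIs in 75 of 157 cells). B cells followed with 41.1 and 40.2 CPM, and their intervals overlapped those of WT neutrophils (30.9 CPM, from 4 UMIs, against 0 in KO) and of KO cDC1 (35.1 CPM, against 4.85 CPM in WT). Below these, cDC2 were at 22.3 and 31.0 CPM, T cells at 22.2 and 20.6 CPM, NK cells at 16.7 and 12.8 CPM and macrophages at 11.9 and 14.6 CPM. Classical monocytes were at 3.28 and 5.11 CPM. The share of cells with a UMI was 44.6% and 47.8% in pDC (median depths 5486 and 6656 UMIs) against 9.75% and 11.1% in B cells, and 11.7% and 15.2% against 4.31% and 4.18% after thinning. No KO to WT ratio of Tfrc passed 1.5-fold and every interval of the 6 measured classes included 1, among them pDC (0.884, 0.712 to 1.10), B cells (0.980, 0.814 to 1.18), T cells (0.931, 0.731 to 1.19) and macrophages (1.22, 0.480 to 3.02). In cDC1, under the 20-UMI minimum, 3 UMIs in 2 WT cells stood against 15 UMIs in 7 KO cells (7.23, 2.05 to 39.0). Cycling T cells were at 1.17 (0.661 to 1.96) of the level of non-cycling ones in WT and at 1.61 (0.940 to 2.62) in KO.

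The genes whose levels followed each member most closely were sought over 22 profiles, the 11 classes in both libraries, among 8336 genes with at least 500 UMIs. These are Pearson correlations of log2 CPM given as a description, since the profiles share libraries and the panels. Hmox1 and Slc11a1 were close to one another (r = 0.961), Slc11a1 was closest to the complement receptor C5ar1 (0.970), and Hmox1 was also close to the chemokine Ccl2 (0.953) and the lipid droplet gene Plin2 (0.948). Fth1 followed Slc15a3 (0.933) and Ftl1 followed Cstb (0.962), and both were close to the proton pump subunit Atp6v0c (0.928 and 0.947). Slc40a1 was closest to Acod1 (0.873), which makes itaconate, Cd163 to Cd200r1 (0.779), Tfrc to Cdip1 (0.868) and Blvrb to Sdc4 (0.870).

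Around the members, 38 of the 69 listed pathway genes were measured in macrophages at the 20-UMI minimum, and 6 of the 38 (15.8%) passed 1.5-fold, against 24.7% of all genes at that minimum. Of the 7 iron uptake genes 2 were measured, with 0 higher and 1 lower in KO. Storage and iron sensing had 7 of 9 measured, 0 higher and 1 lower. For the export and hepcidin genes it was 1 of 8, with 1 higher and 0 lower, and for heme uptake, breakdown and transport 6 of 10, with 0 higher and 1 lower. Heme synthesis and mitochondrial iron had 10 of 17 measured and none past 1.5-fold in either direction, heme and oxidant response 11 of 12 with 1 higher and 1 lower, and the secreted binders 1 of 6 with 0 past it. Among those with the most UMIs, the ferritin iron chaperone Pcbp1 was at 293 CPM in WT and 300.3 CPM in KO macrophages, the heme-hemopexin receptor Lrp1 at 320 and 287 CPM, the oxidant-response factor Nfe2l2 at 241 and 243 CPM, the metallothionein Mt1 at 833 and 1057 CPM (1.27, 1.15 to 1.40) and transferrin, Trf, at 149 and 197 CPM (1.32, 1.04 to 1.67). The metal importer Slc11a2 was at 30.3 and 19.0 CPM (0.627) and Hfe, a partner of the transferrin receptors, at 20.2 and 36.4 CPM (1.81, 0.978 to 3.36), from 33 and 13 and from 22 and 25 UMIs. The other 4 genes past 1.5-fold, given after their values were seen, include Spic, the transcription factor of heme-recycling macrophages, with 8 and 14 UMIs (2.78, 1.09 to 7.66), and the heme exporter Flvcr1, with 28 and 7 UMIs (0.398, 0.147 to 0.932). They also include Fbxl5, an iron-sensing ubiquitin ligase subunit, with 42 and 13 UMIs (0.492, 0.242 to 0.935), and Gclc, of glutathione synthesis, with 37 and 13 UMIs (0.559, 0.272 to 1.07).

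Among the secreted binders, 4 of 6 were measured in classical monocytes, with 2 higher in KO past 1.5-fold and 0 lower, and 4 of 6 in neutrophils, with 3 higher and 1 lower, where 17.5% and 39.5% of all genes passed at that minimum in either direction; Lcn2 and Ltf were picked after their values were seen. Lcn2, which binds bacterial iron carriers, had 63 WT and 150 KO UMIs in classical monocytes (25.8 and 128 CPM; 4.95, 3.66 to 6.75) and was at 1205 and 2849 CPM in neutrophils (2.37, 1.93 to 2.91). Lactoferrin, Ltf, had 26 and 34 UMIs in monocytes (2.72, 1.58 to 4.72) and 2 and 21 UMIs in neutrophils (15.8, 3.85 to 139). Haptoglobin, Hp, was at 609 and 875 CPM in monocytes (1.44, 1.33 to 1.56) and 819 and 1448 CPM in neutrophils (1.77, 1.35 to 2.31). The lower one in neutrophils was Trf, with 15 and 5 UMIs (0.500). In the same monocytes the neutrophil genes S100a8 (135 and 523 CPM) and S100a9 (203 and 430 CPM) were also higher in KO, and their part in the Lcn2 and Ltf values was not tested.

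Genes listed for other cell types were measured beside these values. In macrophages the 6 hepatocyte genes summed to 15.6 CPM in WT and 24.8 CPM in KO, the 4 melanoma genes, all above 0, to 33.9 and 61.2 CPM and the 4 endothelial genes to 28.4 and 75.8 CPM. The endothelial sum was higher in B cells (197.5 and 162.7 CPM) and T cells (85.14 and 78.50 CPM). In WT T cells it came from 1 of the 4 genes, so this sum is not read as RNA of endothelial cells. The 4 hemoglobin genes gave 1 UMI in WT and 40 UMIs in KO macrophages, all 40 in the Kupffer panel cell named above. Their part in the macrophage ratios was not tested.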

How the data were processed

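Gene expression of live CD45+ liver cells was measured with the 10x Genomics 5′ v1.1 chemistry in 1 WT and 1 Vsig4 KO library. The deposited matrices hold UMI counts per gene and barcode, made with Cell Ranger 7.1.0 on mm10 per the submitters' processing notes. Cells with at least 500 UMIs, 200 genes and at most 10% mitochondrial UMIs were used. Scrublet, as run by scanpy 1.11.5, called 0 WT and 2 KO doublets by its own threshold and so did not work; the highest scores were removed at 0.8% per 1000 barcodes (381 and 267 cells). The other tools were python 3.11.15, numpy 2.4.6, scipy 1.17.1 and pandas 2.3.3.

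Counts were summed per class and divided by all UMIs of the class. Intervals are exact: Poisson for CPM, Clopper-Pearson for shares and conditional binomial for ratios. A ratio past 1.5-fold in either direction was counted, with at least 20 UMIs for members and lists and 50 UMIs for all genes; medians used log2 of CPM plus 10. Shares were thinned to 1000 UMIs per cell, leaving out shallower cells. Cells passing several of the 12 panels were left out unless a fixed order applied. Library totals ran from 23370920 to 26212434 UMIs. Positions and UTRs came from GENCODE M21, which matched 31107 of 31253 genes. The members, lists and panels were chosen with earlier results of these data known. Named are the 8 members, Vsig4, from each list the 3 genes with most UMIs in macrophages, of which those that show a difference or a high level are printed, and the 3 genes nearest in pattern; others are said to be picked after their values were seen. Of the genes used to check the classes, 1 is not reported here. The counting of calls was tested on simulated data. Alternatives were other panel thresholds, doublet and mitochondrial filters, scaling, per-cell means, and leaving out the cell with most UMIs.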

Additional observations from a re-analysis of the deposited data

Results flagged for a closer look

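Cd163, the hemoglobin-haptoglobin receptor, drew attention because its KO to WT ratio pointed in opposite directions in 2 dendritic cell classes, above 1 in cDC2 (2.15, interval 1.07 to 4.36) and below 1 in pDC (0.346, interval 0.101 to 0.967). The difference between the 2 classes was not tested, since each genotype has 1 library. The values rest on 17 WT and 20 KO UMIs in cDC2 and 18 WT and 5 KO UMIs in pDC. Without the cell with most Cd163 UMIs in each library the ratios were 1.61 (0.730 to 3.53) and 0.314 (0.0763 to 0.972).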

How the results depend on the processing

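In macrophages no measured ratio passed 1.5-fold, so there was no called direction that could reverse. The mean of each cell's CPM did turn the direction of Slc40a1 there, as given above. Of 70 alternative values of 7 gene ratios in macrophages, 61 stayed within the counting interval of the reported ratio and 9 left it. Those 9 were Fth1 at 1.08 with a panel threshold of 2 UMIs, 1.17 with 5 UMIs, 1.05 as a mean of each cell's CPM and 1.02 with cells of both panels joined; Ftl1 at 1.36 with 5 UMIs, 1.22 as a per-cell mean, 1.22 without the top cell and 1.21 with those cells joined; and Blvrb at 1.03 as a per-cell mean. In the other classes 342 of 367 values stayed and 25 moved, for 46 ratios. Shares of UMIs held moved in 20 of 80 cases. Shares of cells with a UMI moved in 100 of 264, 64 of them without thinning and 36 at 2000 UMIs. Of the 11 class medians, 0 moved with a pseudocount of 1 CPM in place of 10. The value of tumour-associated-panel macrophages without their top cell was added after seeing the data. No paired analysis was possible because each genotype has 1 library, and for the same reason no library could be left out. Depth limits Slc40a1 and Cd163 most: 0 Slc40a1 UMIs in classical monocytes allow up to 1.51 CPM in WT and 3.14 CPM in KO.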

Other observations

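Cycling B cells were few (5 WT and 12 KO cells) and had another ferritin balance than the rest. Their Fth1 was 0.240 of the level of non-cycling B cells in WT and 0.442 in KO, while their Ftl1 was 1.70-fold and 1.67-fold, so that Fth1 per Ftl1 UMI was 0.280 and 0.504 against 1.98 and 1.90. These genes and cells were picked after their values were seen.

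Cycling macrophages (26 WT and 20 KO cells) held Hmox1 at 0.507 (0.343 to 0.723) of the level of non-cycling macrophages in WT and 0.810 in KO, and Fth1 at 0.535 and 0.802. The hemoglobin genes gave 1149 UMIs in WT B cells, 1136 of them in 1 cell, and 3309 UMIs in 1 WT NK cell.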
